A study of Arabidopsis thaliana with 24 samples.

Results

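The xyloglucan endotransglucosylase/hydrolase (XTH) family of Arabidopsis comprises the 33 genes XTH1 to XTH33. All 33 were taken by locus from the 33020 loci of the deposited table, and 23 of them reached the level needed for testing, among 19126 loci that did. RNA was measured in seedlings harvested whole at an age of 6 days, which had been grown in white light. Shaded seedlings had 1 hr of light in which the ratio of red to far-red was 0.4, and control seedlings stayed in white light. The groups were pif7 in shade, pif7 in white light, asf1ab in shade, asf1ab in white light, hira in shade, hira in white light, wild type (WT, Col-0) in shade and WT in white light, with 3 libraries each and 24 in all. The labels name neither the mutant alleles nor the number of seedlings in a library, and nothing says whether libraries of a group came from separate cultures, so p-values measure only the spread between these samples.

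XTH enzymes act in the plant cell wall on xyloglucan, a polysaccharide that coats and tethers cellulose. As endotransglucosylases they cut a xyloglucan chain and join the new end to another chain, and as hydrolases they cut it without rejoining. The family is expressed in tissues whose cells expand, and stem and petiole elongation under plant shade is among the responses in which it has been studied. PIF7 is a transcription factor that acts after phytochrome has sensed shade, ASF1 is a chaperone for histones H3 and H4, and HIRA is a chaperone that deposits the histone variant H3.3. Members fall into sequence classes called Group I, Group II, Group III-A and Group III-B. Group III-A holds XTH31 and XTH32 and is the class best known for hydrolase activity.

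Levels are given as FPKM, the authors' a read density per kilobase of transcript scaled to library size, which corrects for gene length. Changes are differences of log2(FPKM + 1) with their standard error (SE) from a limma fit over all tested loci, and a member is said to rise or fall where the Benjamini-Hochberg adjusted p is below 0.05. The added 1 compresses changes of members with low FPKM. Summed FPKM lay between 778266 and 893997 per library, and the spacing of low values placed the depth at about 13340000 to 18020000 reads, so that 1 read in a gene of 1 kb was worth 0.0555 to 0.075 FPKM. The median change of all tested loci was 0.01 for shade in WT, 0.12 in pif7, 0.05 in asf1ab and 0.14 in hira, and members are read against it. Libraries 1 and 2 of white-light hira stood apart, with 8.32 and 7.27% of summed FPKM in ribosomal RNA, while the highest and lowest over all 24 libraries were 8.32 and 0.724%. PIF7 had 0.48 to 1.7 FPKM in 6 pif7 libraries and 11.15 to 28.78 FPKM in 6 WT libraries, and ASF1B had 1.74 to 2.09 FPKM in asf1ab and 8.11 to 12.3 FPKM in WT. ASF1A (8.8 to 16.41 FPKM in asf1ab and 12.0 to 13.37 FPKM in WT) and HIRA (3.68 to 4.81 FPKM in hira and 4.59 to 5.2 FPKM in WT) overlapped between mutant and WT, so their levels do not check those labels. The green shoot markers were strong in every library, at 15951.53 to 31108.16 FPKM summed over 5 genes. Root hair markers were near 0 for whole seedlings, at 0.02 to 4.64 FPKM summed over 5 genes, and 2 of 5 root markers, PHT1;1 and SCR, were expressed strongly enough to test. PLT1, WOX5 and NRT2.1 were near 0 as well. What the root list says of root RNA thus rests on PHT1;1 and SCR, whose restriction to roots was not checked.

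The sequences upstream of XTH17, XTH18 and XTH33 are shown because these members rose in shaded WT and then parted in pif7, where XTH18 rose as well, XTH17 was not called and the response of XTH33 was smaller than in WT. Each run is the 250 bases before the annotated start in the RefSeq assembly TAIR10.1, 5′ to 3′ on the gene's strand, and capitals mark the letters CATGTG or their reverse complement CACATG. XTH17 (AT1G65310) lies on the plus strand with this window at chr1:24256804-24257053, XTH18 (AT4G30280) on the minus strand at chr4:14827212-14827461 and XTH33 (AT1G10550) on the minus strand at chr1:3481042-3481291.
XTH17: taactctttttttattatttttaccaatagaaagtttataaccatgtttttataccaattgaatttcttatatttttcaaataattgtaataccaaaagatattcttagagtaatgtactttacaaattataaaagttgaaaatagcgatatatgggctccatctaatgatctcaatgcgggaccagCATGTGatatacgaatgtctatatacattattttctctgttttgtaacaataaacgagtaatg
XTH18: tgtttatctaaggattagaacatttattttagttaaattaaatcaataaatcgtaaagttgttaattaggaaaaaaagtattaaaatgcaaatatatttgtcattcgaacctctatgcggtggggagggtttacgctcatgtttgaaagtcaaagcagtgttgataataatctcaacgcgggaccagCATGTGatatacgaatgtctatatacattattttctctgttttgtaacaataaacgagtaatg
XTH33: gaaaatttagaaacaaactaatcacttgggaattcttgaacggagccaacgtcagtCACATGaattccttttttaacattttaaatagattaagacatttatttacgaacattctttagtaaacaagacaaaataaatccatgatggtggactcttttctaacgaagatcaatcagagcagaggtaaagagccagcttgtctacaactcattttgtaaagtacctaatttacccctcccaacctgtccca

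XTH17 and XTH18 carry CATGTG at the same place, from 63 to 58 bases before the start. Without gaps, 87 of the 100 bases before the start are identical (87.0%). From 250 bases before to 50 after the start, 173 of 300 are identical (57.7%). In XTH33 the marked letters begin 194 bases before the start. Windows of 300 bases, from 250 before to 50 after each start, were searched on both strands for 4 sets of letters. CACGTG, the G-box bound by many basic helix-loop-helix factors, was in 0 of 33 XTH windows and in 7.7% of the windows of 27561 protein-coding genes. CATGTG, a related variant, was in 5 of 33 (XTH17, XTH18, XTH25, XTH26 and XTH33), or 15.2%, against 12.9% of all. CAATNATTG, a homeodomain-zipper core, was in XTH7 alone of the family (1.1% of all genes), and TGTCTC, an auxin response element, was in XTH3, XTH6 and XTH21 (14.1% of all). No XTH window held more than 1 of these sets of letters, and a match is a description of the sequence only.

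In white-light WT the family was led by XTH4 (EXGT-A1) with 304.2 ± 49.2 FPKM, XTH7 with 236.5 ± 52.6 FPKM and XTH24 (MERI5) with 200.3 ± 30.0 FPKM (mean ± SD, n = 3). Library ranges of neighbours in this order overlap from XTH4 through XTH24, and XTH24 lay above the next member, XTH27 (EXGT-A3, known from vascular tissue), at 117.0 ± 6.73 FPKM. XTH6 with 87.2 ± 22.7 FPKM, the Group III-A member XTH31 with 84.8 ± 24.9 FPKM and XTH28 (EXGT-A2) with 53.0 ± 2.75 FPKM followed. XTH17, XTH15, XTH25, XTH19 and XTH33, all raised by shade, stood near the low end at 2.52 ± 0.594, 1.40 ± 0.548, 1.23 ± 0.850, 1.11 ± 0.401 and 0.590 ± 0.208 FPKM. The 10 members below the testing level (XTH1, XTH2, XTH3, XTH10, XTH12, XTH13, XTH20, XTH21, XTH26 and XTH29) never exceeded 2.3 FPKM in a library, and XTH1 was listed at 0 in all 24. XTH33 had a mean below 1 FPKM in white light and so was tested through its shaded libraries. XTH20, in contrast, averaged 1.21 FPKM over the 12 white-light libraries and 0.90 FPKM over all 24, and so missed the level through its shaded libraries. In WT it had 0.77, 0.92 and 0.59 FPKM in shade, against 0.54, 1.29 and 2.3 FPKM in white light, with overlap. Fewer cells of a type and less RNA per cell cannot be told apart in these whole-seedling libraries.

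Shade for 1 hr in WT raised 15 of the 23 tested members and lowered 3. Over all tested loci 14.9% were higher and 11.4% lower. The median change of the 23 members was 1.13 on the log2 scale and that of all loci 0.01, and 16 members against 4.80% of loci were called with a change of at least 1 log2 unit. Group II held 9 of the risers among its 10 tested members, with a median change of 1.94. Group I held 4 among 7 tested members (median 0.92), Group III-B rose in 2 and fell in 1 of 4, and both members of Group III-A fell.

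Among the risers of Group II, XTH15 (XTR7), long used as a shade marker, had 41.38, 30.9 and 37.88 FPKM in shaded WT, against 0.82, 1.91 and 1.46 FPKM in white-light WT, a change of 3.99 ± 0.215 log2 units (SE, adjusted p = 4.76e-11). XTH22 (TCH4), first described as induced by touch, had 210.81, 171.52 and 193.88 FPKM in shade, against 12.94, 11.96 and 31.02 FPKM in white light (3.42 ± 0.241, adjusted p = 2.37e-09). Every shaded library of both genes lay far above every white-light library, although library 3 of white-light WT held more XTH22 than the other two. In that library the 11 genes of a touch and handling list summed to 629.7 FPKM, against 287.7 and 317.1 FPKM in libraries 1 and 2. Library 3 also had the highest sum in white-light pif7 (507.7, against 311.5 and 325.2 FPKM) and white-light hira (760.3, against 481.9 and 528.1 FPKM). In white-light asf1ab it did not (320.0, against 317.0 and 335.1 FPKM). The part of handling in the XTH22 level was not tested. With shade, 3 of the 10 tested genes of this list rose in WT and 0 fell, against 14.9% and 11.4% of loci. The transcription factor gene CBF2 rose by 1.66 and the calmodulin-like genes TCH3 by 1.49 and TCH2 by 1.05 log2 units. In pif7 2 rose and 2 fell (29.9% and 13.6% of loci), and in asf1ab 1 rose and 2 fell (18.8% and 12.3%). In hira 1 rose and 6 fell (26.0% and 9.55%), or 0 and 6 after rescaling (14.4% and 14.6%).

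XTH17, studied in roots and in shade-grown stems, had 18.93, 16.87 and 16.16 FPKM in shaded WT, against 1.84, 2.95 and 2.76 FPKM in white-light WT (2.39 ± 0.280, adjusted p = 2.23e-06). XTH25 had 12.37, 7.58 and 10.15 FPKM in shade, against 1.26, 0.37 and 2.07 FPKM in white light (2.36 ± 0.423, adjusted p = 0.000299). The groups did not overlap for either gene, and the error of XTH25 was the largest of the family. XTH16, a close relative of XTH15, had 64.33, 63.14 and 82.56 FPKM in shade, against 12.95, 14.84 and 19.3 FPKM in white light (2.095 ± 0.191, adjusted p = 8.92e-08). XTH23 had 23.91, 15.65 and 19.38 FPKM in shade, against 3.14, 4.26 and 8.57 FPKM in white light (1.78 ± 0.257, adjusted p = 2.82e-05). Both were separated between the lights in all libraries.

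The last 3 risers of Group II lie side by side on chromosome 4. XTH24 had 504.79, 362.39 and 504.43 FPKM in shaded WT, against 191.28, 175.8 and 233.7 FPKM in white-light WT (1.18 ± 0.255, adjusted p = 0.00161). XTH18 had 41.8, 23.12 and 31.15 FPKM in shade, against 10.47, 9.76 and 23.45 FPKM in white light (1.15 ± 0.296, adjusted p = 0.00633). Its lowest shaded library lay just under its highest white-light library, and the call was lost when only the WT libraries were fitted (adjusted p = 0.0647). XTH19 had 4.7, 3.37 and 4.34 FPKM in shade, against 0.77, 1.55 and 1.0 FPKM in white light (1.29 ± 0.231, adjusted p = 0.000279), with no overlap. Transcripts of XTH18 and XTH19 share an identical run of 68 bases, those of XTH17 and XTH19 one of 51 and those of XTH17 and XTH18 one of 47, and the read length is not given, so some reads may have been assigned to the wrong member among XTH17, XTH18 and XTH19.

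XTH14, the Group II member that was tested and not called, had 1.42, 1.62 and 2.1 FPKM in shaded WT, against 0.78, 1.87 and 1.89 FPKM in white-light WT. It lies next to XTH23 on chromosome 4, which rose. A run of 4 members on chromosome 5, XTH12, XTH13, XTH25 and XTH22, likewise holds 2 members too low to test beside 2 that rose.

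Among Group I members, XTH8 had 29.93, 32.51 and 29.74 FPKM in shaded WT, against 7.39, 9.44 and 10.19 FPKM in white-light WT (1.67 ± 0.221, adjusted p = 9.96e-06). The abundant XTH4 had 607.65, 563.14 and 717.76 FPKM in shade, against 264.54, 288.91 and 359.2 FPKM in white light (1.05 ± 0.163, adjusted p = 6.28e-05). XTH6 had 150.13, 166.88 and 253.03 FPKM in shade, against 66.16, 111.19 and 84.1 FPKM in white light (1.11 ± 0.249, adjusted p = 0.00224). Every shaded library lay above every white-light library for these 3 genes and for XTH9, known from growing shoot tips, which averaged 58.3 ± 7.35 FPKM in shade and 30.1 ± 0.663 FPKM in white light (0.92 ± 0.210, adjusted p = 0.00256). XTH7, second in level, was not called, at 193.1 ± 14.6 FPKM in shade and 236.5 ± 52.6 FPKM in white light (-0.27 ± 0.166, adjusted p = 0.26), nor were XTH5 (-0.06) and XTH11 (0.18).

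Group III-B moved in both directions. XTH33, a member with a predicted membrane anchor, had 11.18, 11.19 and 11.46 FPKM in shaded WT, against 0.35, 0.72 and 0.7 FPKM in white-light WT (2.96 ± 0.154, adjusted p = 3.31e-11). XTH30 had 31.13, 23.01 and 27.05 FPKM in shade, against 10.83, 12.17 and 12.29 FPKM in white light (1.13 ± 0.154, adjusted p = 1.43e-05). Neither gene overlapped between lights. XTH28, needed for stamen filament growth, had 35.96, 42.93 and 44.2 FPKM in shade, against 56.18, 51.54 and 51.3 FPKM in white light, a small fall without overlap (-0.37 ± 0.083, adjusted p = 0.00247). XTH27 was not called (0.37 ± 0.153, adjusted p = 0.0826).

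The pair of Group III-A fell. XTH31 (XTR8) had 8.03, 10.44 and 8.81 FPKM in shaded WT, against 65.29, 76.3 and 112.94 FPKM in white-light WT, a change of -3.06 ± 0.229 log2 units (adjusted p = 5.46e-09). XTH32 had 14.06, 15.05 and 12.82 FPKM in shade, against 37.41, 32.34 and 37.29 FPKM in white light (-1.29 ± 0.117, adjusted p = 8.22e-08). Both stayed below their white-light range in every shaded library. The 2 root markers tested, PHT1;1 and SCR, were called lower in the same libraries, while 0 of 5 green shoot markers were called, against 11.4% of loci lower and 14.9% higher. The sum over 5 root genes was 20.28 to 21.54 FPKM in shaded WT, against 26.17 to 35.16 FPKM in white-light WT. Nearly all of it came from PHT1;1 and SCR. WOX5 averaged 0.38 FPKM in shade and 0.28 in white light, PLT1 0.173 and 0.177, and NRT2.1 0.053 and 0.05. The part of root RNA in the 3 falls was not tested.

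**Figure D1:**
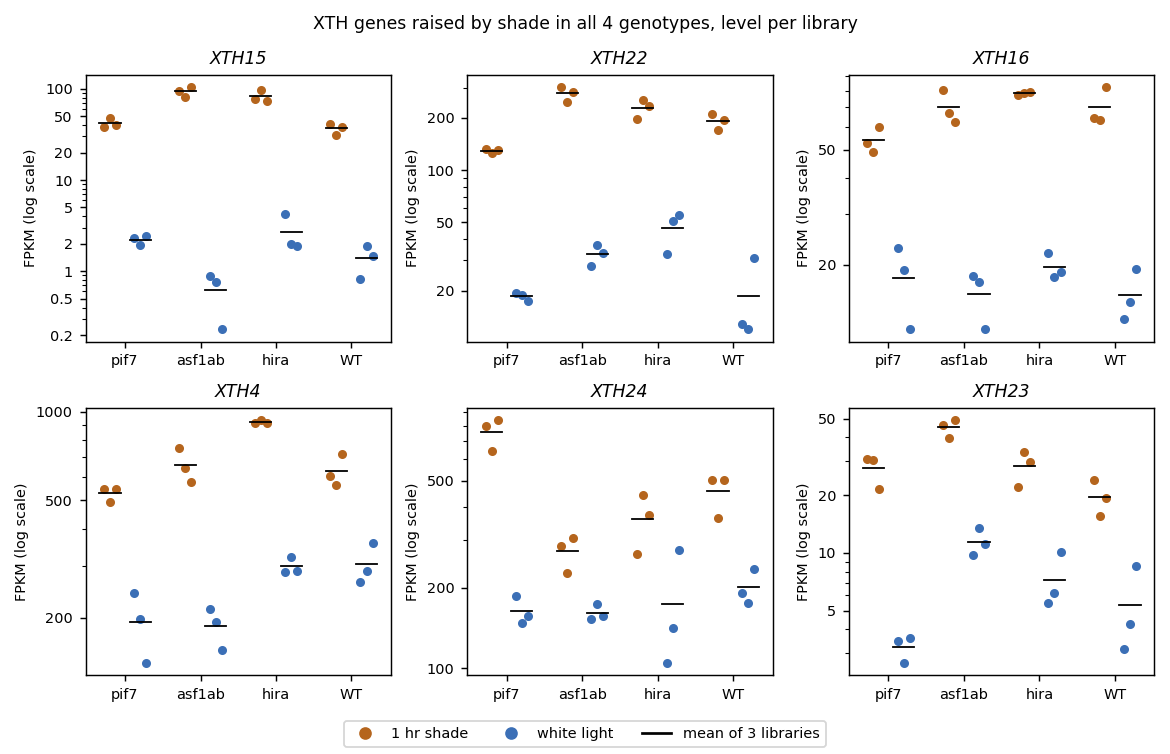
FPKM per library (logarithmic axis) of 6 members that rose in all 4 genotypes, XTH15, XTH22, XTH16, XTH4, XTH24 and XTH23, with shade (orange) left of white light (blue) for pif7, asf1ab, hira and WT; points are libraries and lines are means of 3. The lights are separated in every panel except for XTH24 in hira, where 267.68 FPKM in shade lies below 277.1 FPKM in white light.

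Summed over all 33 members, the family held 2204.0 ± 244 FPKM in shaded WT and 1240.7 ± 175 FPKM in white-light WT (mean ± SD, n = 3). Corresponding sums were 2333.9 ± 163 in shade and 1090.3 ± 170 in white light for pif7, 2160.1 ± 194 in shade and 1107.1 ± 84.3 in white light for asf1ab, and 2570.5 ± 191 in shade and 1235.0 ± 109 in white light for hira. Within each genotype every shaded library exceeded every white-light library, and the sums were not tested. The makeup of the sum also differed. The 15 members raised in WT were picked by the shade contrast in WT. They made up 81.0 ± 1.09% of the family in shaded WT and 56.7 ± 0.491% in white-light WT. In pif7 they made up 81.3 ± 0.942% in shade and 53.0 ± 3.06% in white light. The pif7 libraries entered that choice through the level filter and the shared estimate of spread, so the pif7 shares are not independent of it. XTH31 and XTH32 together made up 1.06 ± 0.218% in shaded WT and 9.65 ± 0.737% in white-light WT. XTH24 alone took 32.5 ± 2.30% of the family in shaded pif7, 12.6 ± 1.67% in shaded asf1ab, 13.9 ± 2.41% in shaded hira and 20.7 ± 2.09% in shaded WT.

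**Figure D2:**
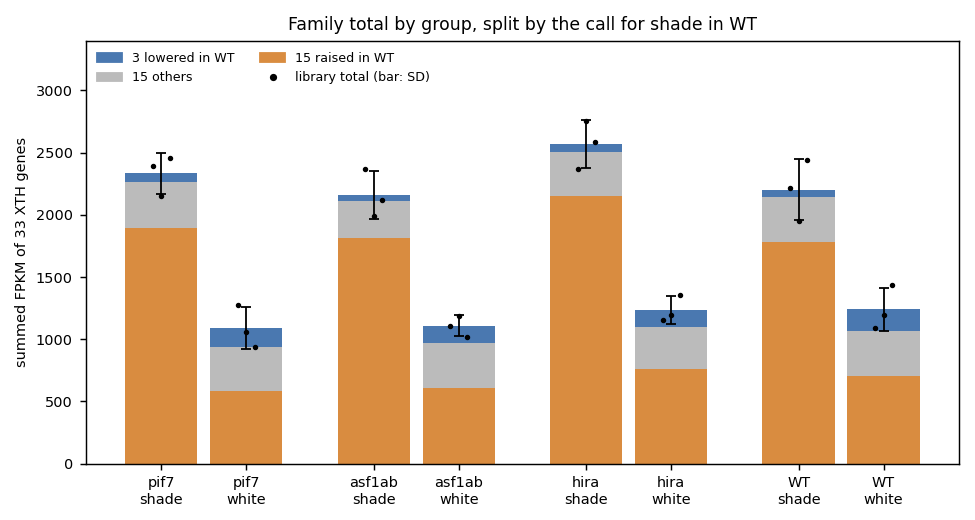
Summed FPKM of the XTH family per library, with shade left of white light in each genotype, as points with the SD as error bars; bars are means split into the 15 members raised in WT, the 3 lowered in WT and the 15 others. Shaded groups average 2160.1 to 2570.5 FPKM and white-light groups 1090.3 to 1240.7 FPKM.

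In pif7, shade raised 14 of the 23 tested members and lowered 3, against 29.9% of loci higher and 13.6% lower. Because the pif7 median shifted by 0.12, counts were repeated after rescaling by the median of ratios, which gave 13 higher and 4 lower members against 18.8% and 18.7% of loci. In asf1ab 14 members rose and 4 fell (18.8% and 12.3% of loci), and after rescaling 12 rose and 4 fell (15.8% and 15.0%), with XTH6 (adjusted p = 0.0584) and XTH11 (adjusted p = 0.0646) no longer called. In hira 15 rose and 3 fell (26.0% and 9.55% of loci), and 13 and 3 did so after rescaling (14.4% and 14.6%). XTH31 and XTH32 fell in all 4 genotypes (4.45% of loci), and 10 members rose in all 4 (8.89% of loci). After rescaling 2 and 8 members did so (6.03% and 6.31% of loci), since XTH8 was not called in pif7 (adjusted p = 0.144) and XTH6 not in asf1ab. Among the 10, the call of XTH24 in asf1ab was lost without replicate 1 or 3 of asf1ab in either light (0.66 to 0.73, adjusted p = 0.0725 to 0.1), that of XTH6 in asf1ab without replicate 1 of shaded or replicate 3 of white-light asf1ab (0.60 and 0.54, adjusted p = 0.125 and 0.146) and that of XTH6 in pif7 without replicate 3 of white-light pif7 (0.57, adjusted p = 0.0674).

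XTH5 and XTH14 were called in none of them, although XTH14 was called lower in pif7 after rescaling (adjusted p = 0.0472). XTH7, not called in WT, fell in pif7 (-0.54 ± 0.166, adjusted p = 0.0134), asf1ab (-0.94 ± 0.166, adjusted p = 0.000199) and hira (-0.46 ± 0.166, adjusted p = 0.0378). The pif7 call of XTH7 was lost without replicate 2 of shaded or replicate 1 of white-light pif7 (-0.47 and -0.37, adjusted p = 0.0547 and 0.0987), and the hira call without any single hira library (-0.50 to -0.43, adjusted p = 0.0534 to 0.102). The asf1ab call was made in every fit that left out 1 library. No mutant response of XTH7 was called different from that of WT (adjusted p = 0.497 in pif7, 0.306 in asf1ab and 0.714 in hira).

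Markers of shoot and root moved in the same contrasts. In hira 3 of 5 green shoot markers were called lower with shade, LHCB1.1 by -1.11, LHCB3 by -0.73 and CAO by -0.69 log2 units, and their list summed to 21119.25 to 22843.02 FPKM in shaded hira, against 24729.7 to 31108.16 FPKM in white-light hira. White-light levels of these genes were highest in libraries 1 and 2, those rich in ribosomal RNA. LHCB1.1 had 7165.92, 7608.57 and 3785.89 FPKM in white-light hira, against 2627.19 to 2971.96 FPKM in shade. LHCB3 had 4225.81, 4655.24 and 2254.35 FPKM, against 2031.13 to 2277.36 FPKM, with overlap. CAO had 152.13, 170.99 and 110.82 FPKM, against 85.88 to 89.13 FPKM. In asf1ab 0 of 5 green shoot markers were called. Of the root markers, SCR was called lower in pif7 (-0.22), asf1ab (-0.62) and hira (-0.43), and PHT1;1 in asf1ab (-0.81). Over all tested loci 13.6% were lower in pif7, 12.3% in asf1ab and 9.55% in hira (18.7%, 15.0% and 14.6% after rescaling). The root list, again nearly all PHT1;1 and SCR, summed to 22.2 to 24.2 FPKM in shaded pif7, against 25.4 to 39.7 FPKM in white-light pif7. In asf1ab it summed to 17.83 to 21.74 FPKM in shade, against 29.85 to 32.95 FPKM in white light, and in hira to 20.63 to 22.95 FPKM in shade, against 23.71 to 26.96 FPKM in white light. Their part in the member values, the fall of XTH31 and XTH32 included, was not tested.

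Both Group III-A members fell in each mutant. XTH31 had 4.9, 8.34 and 5.09 FPKM in shaded pif7, against 68.21, 68.36 and 99.89 FPKM in white-light pif7 (-3.50 ± 0.229). In asf1ab it had 2.96, 3.44 and 2.76 FPKM in shade, against 43.09, 63.94 and 59.66 FPKM in white light (-3.79 ± 0.229). In hira it had 8.62, 5.38 and 6.53 FPKM in shade, against 61.43, 44.43 and 68.59 FPKM in white light (-2.91 ± 0.229). The lights were separated in every genotype, and no mutant response of XTH31 was called different from that of WT. XTH32 had 8.16, 6.89 and 8.35 FPKM in shaded pif7, against 24.35, 22.2 and 21.02 FPKM in white-light pif7 (-1.42 ± 0.117), and changed by -2.01 ± 0.117 in asf1ab and -1.86 ± 0.117 in hira. Its response differed from WT by -0.72 in asf1ab (adjusted p = 0.063) and -0.57 in hira (adjusted p = 0.0896), neither called as fitted, and the hira difference was called after rescaling (adjusted p = 0.0468).

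A test of the difference between the pif7 and the WT shade response called 4 members with a smaller response, XTH17, XTH33, XTH19 and XTH8, and 1 with a larger value, XTH28, against 2.98% and 3.13% of loci. After rescaling XTH17, XTH33, XTH19 and XTH8 were again lower and 0 members higher, against 3.85% and 1.54% of loci. These 5 differences share the WT libraries with the WT counts above. XTH17 had 1.36, 2.89 and 3.2 FPKM in shaded pif7, against 3.51, 1.48 and 1.67 FPKM in white-light pif7, where shade changed it by 0.12 ± 0.280 (adjusted p = 0.752). The lights overlapped in pif7 for this gene, and its response was -2.27 ± 0.396 log2 units relative to WT (adjusted p = 0.00174). XTH19 had 1.32, 1.52 and 0.36 FPKM in shaded pif7, against 1.1, 0.8 and 2.01 FPKM in white-light pif7 (-0.17 ± 0.231), a response of -1.47 ± 0.326 relative to WT (adjusted p = 0.0125), again with overlap between lights.

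XTH33 had 2.73, 2.51 and 2.87 FPKM in shaded pif7, against 0.39, 0.56 and 0.38 FPKM in white-light pif7, and so still rose (1.36 ± 0.154, adjusted p = 1.62e-06). Its response was -1.60 ± 0.218 relative to WT (adjusted p = 0.000112). XTH8 had 15.91, 18.15 and 20.95 FPKM in shaded pif7, against 13.29, 11.8 and 11.17 FPKM in white-light pif7 (0.56 ± 0.221, adjusted p = 0.0476), and its response was -1.12 ± 0.312 relative to WT (adjusted p = 0.0395). The shaded libraries lay above the white-light ones for both genes, the XTH8 rise was not called after rescaling or in 17 of 24 fits without 1 library (adjusted p = 0.0503 to 0.153), and its difference from WT was not called without any of 12 single libraries (adjusted p = 0.0502 to 0.108).

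Of the 15 members raised in WT, 12 also rose in pif7, where 29.9% of all loci rose. The matching share among all loci raised in WT was not counted. XTH15 had 38.33, 47.83 and 40.58 FPKM in shaded pif7, against 2.3, 1.92 and 2.46 FPKM in white-light pif7 (3.74 ± 0.215, adjusted p = 6.02e-10), and the difference from the WT response, -0.25 ± 0.305, was not called (adjusted p = 0.646). XTH18 had 47.98, 47.53 and 41.55 FPKM in shade, against 9.91, 5.27 and 9.19 FPKM in white light (2.39 ± 0.296, adjusted p = 4.4e-06). XTH24 had 802.42, 642.78 and 840.28 FPKM in shade, against 185.62, 147.3 and 156.12 FPKM in white light (2.21 ± 0.255, adjusted p = 1.91e-06). For these 3 genes all shaded libraries lay above all white-light ones. The pif7 responses exceeded the WT responses by 1.24 for XTH18 (adjusted p = 0.0804), 1.03 for XTH24 (adjusted p = 0.089) and 0.97 for XTH23 (adjusted p = 0.111), and none of these was called. XTH17 and XTH18, whose upstream sequences are alike close to the start (87.0% of 100 bases) and less so over 300 bases (57.7%), thus changed by 0.12 and 2.39 log2 units in shaded pif7. The change of 1 gene was not tested against the other.

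**Figure D3:**
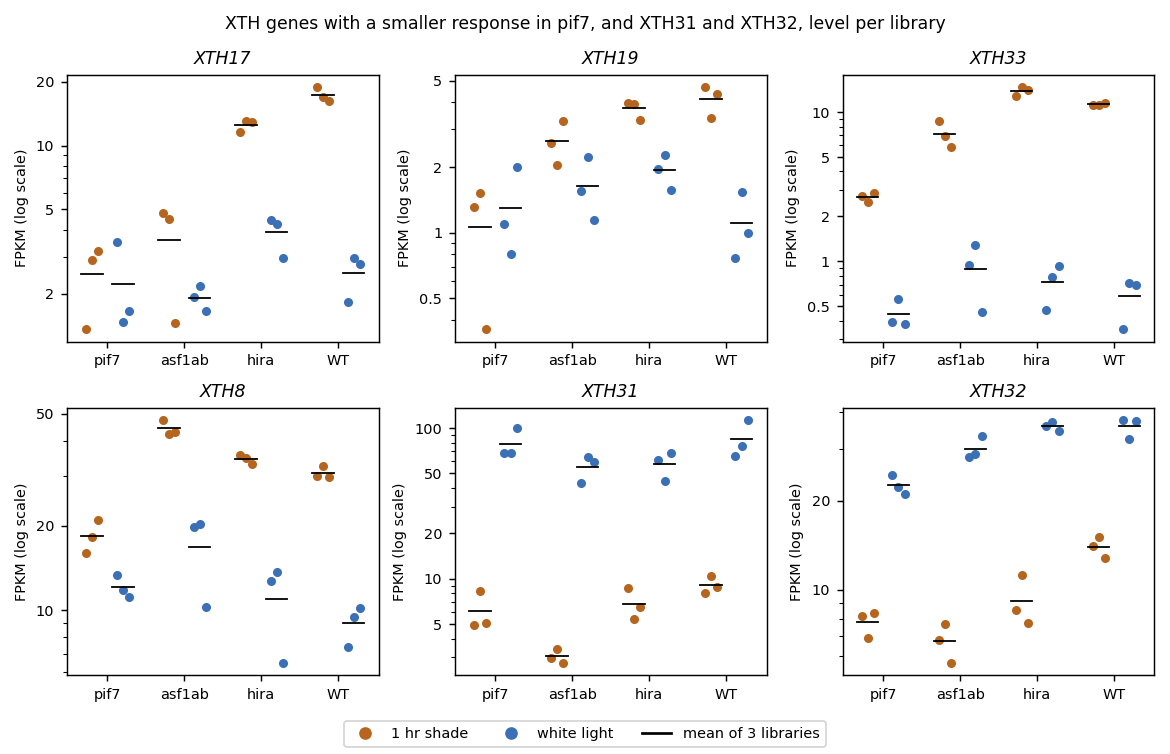
FPKM per library of XTH17, XTH19, XTH33 and XTH8, whose shade response was smaller in pif7 than in WT, and of XTH31 and XTH32, on logarithmic axes, with shade (orange) left of white light (blue) in each genotype; points are libraries and lines are means of 3. XTH17 overlaps between lights in pif7, while XTH31 and XTH32 are lower in shade in all 4 genotypes.

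XTH28 was not called in pif7, with 52.62, 50.47 and 52.22 FPKM in shade, against 46.96, 48.0 and 49.29 FPKM in white light (0.11 ± 0.083, adjusted p = 0.327). Its response was higher than in WT by 0.47 ± 0.118 (adjusted p = 0.0242), a call that was lost after rescaling (0.36, adjusted p = 0.0643). The green shoot markers, in contrast, were called lower in 5 of 5 genes in shaded pif7, against 13.6% of loci, or 18.7% after rescaling. Their sums were 15951.53 to 17743.92 FPKM in shade and 23716.95 to 30542.05 FPKM in white light, and their part in the pif7 values was not tested. Of the 14 risers in pif7, XTH11 and XTH27 had not been called in WT. Their pif7 responses were not called different from those of WT (adjusted p = 0.326 for XTH11 and 0.233 for XTH27).

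In asf1ab the response of 1 member was larger and that of 1 smaller than in WT, against 0.173% and 0.288% of loci. XTH15 had 94.39, 81.61 and 105.49 FPKM in shaded asf1ab, against 0.89, 0.77 and 0.23 FPKM in white-light asf1ab, the largest change of the family in any genotype (5.88 ± 0.215, adjusted p = 2.01e-13). It exceeded the WT response by 1.89 ± 0.305 log2 units (adjusted p = 0.00663), and the shaded asf1ab libraries all lay above the shaded WT libraries. White-light levels of XTH15 overlapped between asf1ab and WT (-0.55 ± 0.215, adjusted p = 0.0721). The difference in response between asf1ab and WT was called under every alternative setting, with values of 1.43 to 2.47. XTH15 in shaded hira also lay above shaded WT and overlapped shaded asf1ab. It had 76.73, 98.19 and 73.55 FPKM in shaded hira, against 4.25, 1.97 and 1.88 FPKM in white-light hira. The hira response differed from that of WT by 0.555 ± 0.305, which was not called (adjusted p = 0.34). XTH15 shares 382 exonic bases, 31.6% of its exons, with AT4G14120 on the opposite strand, whose level was 0.81 to 1.85 FPKM over the 24 libraries. That lies below every shaded XTH15 value and at the level of the white-light ones, since AT4G14120 had 1.25, 1.06 and 1.36 FPKM in white-light asf1ab and 1.68, 0.84 and 1.85 FPKM in white-light WT. Whether counting used strand is not stated, so reads of the 2 genes cannot be told apart in the white-light baseline of the asf1ab difference.

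XTH17 had 4.8, 4.52 and 1.46 FPKM in shaded asf1ab, against 1.94, 2.17 and 1.66 FPKM in white-light asf1ab, with overlap (0.56 ± 0.280, adjusted p = 0.145). Its response was -1.84 ± 0.396 relative to WT (adjusted p = 0.0428), and this call was lost without any of 14 single libraries (adjusted p = 0.0506 to 0.12). XTH18 (0.73 ± 0.296, adjusted p = 0.0681) and XTH19 (0.47 ± 0.231, adjusted p = 0.139) were also not called in shaded asf1ab, without a called difference from WT. XTH4 had 755.39, 646.37 and 579.38 FPKM in shade, against 213.18, 193.47 and 155.11 FPKM in white light (1.82 ± 0.163, adjusted p = 4.96e-08), and XTH22 had 303.41, 248.61 and 281.2 FPKM in shade, against 27.88, 36.78 and 33.31 FPKM in white light (3.05 ± 0.241, adjusted p = 8.32e-09). Both rose without overlap.

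In hira the difference from the WT response was called for 1 member, XTH28, which was higher, against 0.607% of loci higher and 0.685% lower, while after rescaling the 1 member called was XTH32, lower (0.267% of loci higher and 1.08% lower). XTH28 had 47.65, 47.08 and 45.99 FPKM in shaded hira, against 39.73, 40.06 and 46.47 FPKM in white-light hira (0.52 ± 0.118 relative to WT, adjusted p = 0.033). The lights overlapped in hira, and the call was lost after rescaling (adjusted p = 0.097). Without the 2 white-light libraries rich in ribosomal RNA, which left 1 library in that group, the difference was 0.38. XTH17 rose in hira, with 11.57, 13.05 and 12.93 FPKM in shade, against 4.47, 4.27 and 2.94 FPKM in white light (1.48 ± 0.280, adjusted p = 0.000413). XTH25 was the raised member not called in hira, with 2.0, 6.33 and 3.52 FPKM in shade, against 1.81, 4.92 and 1.52 FPKM in white light (0.42 ± 0.423, adjusted p = 0.473), and its difference from WT, -1.94, was not called (adjusted p = 0.103). XTH24 had 267.68, 440.69 and 373.86 FPKM in shade, against 104.83, 141.05 and 277.1 FPKM in white light, with overlap (1.14 ± 0.255, adjusted p = 0.00179). Without both libraries rich in ribosomal RNA, the XTH24 change was 0.35, measured against white-light library 3 alone. That library had the highest XTH24 level of white-light hira, 277.1 FPKM. Its touch and handling sum was 760.3 FPKM, against 481.9 and 528.1 FPKM in libraries 1 and 2, and the part of handling was not tested.

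**Figure D4:**
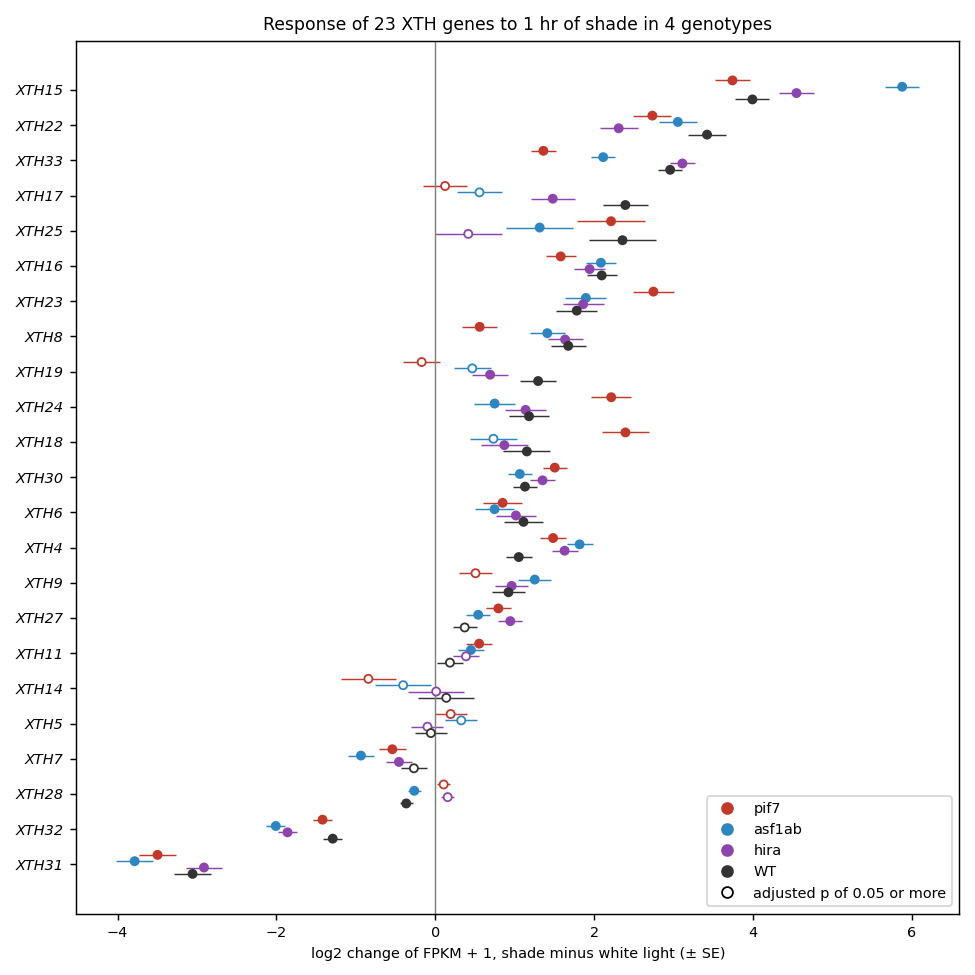
Change of each tested member with shade, as the difference of log2(FPKM + 1) with its SE, in pif7, asf1ab, hira and WT from top to bottom, ordered by the change in WT; filled points have an adjusted p below 0.05. XTH31 and XTH32 lie below 0 in every genotype, and XTH17 and XTH19 lie near 0 in pif7.

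Members were also compared between mutant and WT in white light. In asf1ab 4 were higher and 2 lower than in WT, against 6.26% and 15.8% of loci, and after rescaling the counts were again 4 and 2 (9.83% and 11.9%). XTH23 had 9.8, 13.45 and 11.14 FPKM in white-light asf1ab, against 3.14, 4.26 and 8.57 FPKM in white-light WT (1.06 ± 0.257, adjusted p = 0.00582), and XTH22 (0.90 ± 0.241, adjusted p = 0.0112), XTH9 (0.80 ± 0.210, adjusted p = 0.00983) and XTH8 (0.78 ± 0.221, adjusted p = 0.0155) were also higher. XTH5 (-0.85 ± 0.202, adjusted p = 0.00519) and XTH4 (-0.70 ± 0.163, adjusted p = 0.00453) were lower. XTH22 overlapped between asf1ab and WT, while XTH23 did not. The call of XTH22 was lost without replicate 1 or 2 of white-light WT (0.72 and 0.66, adjusted p = 0.0618 and 0.0742), that of XTH9 without replicate 2 of white-light asf1ab (0.60, adjusted p = 0.0668), and that of XTH8 without replicate 1 or 2 of white-light asf1ab or replicate 1 of white-light WT (0.62 to 0.66, adjusted p = 0.0694 to 0.0855).

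In white-light hira 1 member was higher and 2 lower than in WT (2.61% and 9.03% of loci), and after rescaling 1 was higher and 0 lower (765 and 650 of 19126 loci). XTH22 had 32.78, 50.9 and 55.22 FPKM in white-light hira, against 12.94, 11.96 and 31.02 FPKM in white-light WT, without overlap (1.36 ± 0.241, adjusted p = 0.00124). Touch and handling genes were called higher in 4 of 10 tested and lower in 0 in the same contrast, among them TCH2 (1.42 ± 0.132, adjusted p = 9.28e-07), and CBF2 (2.40 ± 0.211, adjusted p = 4.29e-07). Their list summed to 481.9, 528.1 and 760.3 FPKM in white-light hira, against 287.7, 317.1 and 629.7 FPKM in white-light WT, and their part in the XTH22 level was not tested. XTH5 (-0.65 ± 0.202, adjusted p = 0.0437) and XTH28 (-0.33 ± 0.083, adjusted p = 0.0167) were lower in hira, and neither was called after rescaling. Leaving out 1 library ended the XTH5 call in 14 of 24 fits (adjusted p = 0.0504 to 0.125) and the XTH28 call without replicate 1 or 2 of white-light hira or replicate 1 of white-light WT (-0.30 to -0.29, adjusted p = 0.0641 to 0.087). Green shoot markers were called higher in 2 of 5 in the same contrast, LHCB1.1 by 0.84 and LHCB3 by 0.88 log2 units, and their part in these values was not tested. LHCB1.1 had 7165.92, 7608.57 and 3785.89 FPKM in white-light hira, against 3175.33 to 3430.53 FPKM in white-light WT. LHCB3 had 4225.81, 4655.24 and 2254.35 FPKM, against 1851.8 to 1960.66 FPKM. Both were thus highest in the 2 libraries rich in ribosomal RNA. In white-light pif7 the 1 member called was XTH32, lower (-0.64 ± 0.117, adjusted p = 0.013), against 0.288% of loci lower and 0.110% higher. That call was lost without replicate 2 or 3 of white-light pif7 or replicate 1 of white-light WT (-0.63 to -0.59, adjusted p = 0.0627 to 0.0929).

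Genes that make xyloglucan also rose with shade in WT, in 6 of 12 tested from a list of 14, and 0 fell, against 14.9% of loci higher and 11.4% lower, with a median change of 0.24. CSLC4, which makes the glucan backbone, averaged 50.8 ± 3.75 FPKM in shaded WT and 12.4 ± 3.91 FPKM in white-light WT (1.99 ± 0.195, adjusted p = 2.22e-07). The xylosyltransferase genes XXT1 (1.76 ± 0.124, adjusted p = 2.25e-09) and XXT5 (0.71 ± 0.091, adjusted p = 7.9e-06) rose as well. Of 5 genes that trim xyloglucan side chains or ends, 4 rose and 1 fell, against the same shares of loci. The α-xylosidase gene XYL1 averaged 121.5 ± 9.22 FPKM in shaded WT and 42.8 ± 2.54 FPKM in white-light WT (1.48 ± 0.102, adjusted p = 1.81e-09), the fucosidase gene AXY8 changed by 0.99 ± 0.107 (adjusted p = 7.86e-07) and the β-glucosidase gene BGLC1 by 0.47 ± 0.115 (adjusted p = 0.0045). The β-glucosidase gene BGLC3 fell (-0.40 ± 0.103, adjusted p = 0.0065).

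In pif7 the shade response was called lower than in WT for 1 of 12 tested genes that make xyloglucan, XLT2, and 1 of 5 that trim it, XYL1. It was called higher for 0 of either list, against 2.98% of loci lower and 3.13% higher (3.85% and 1.54% after rescaling). Both genes were named after their values were seen. XLT2, a galactosyltransferase gene for xyloglucan side chains, had 13.09, 12.13 and 13.24 FPKM in shaded pif7, against 19.09, 17.77 and 21.38 FPKM in white-light pif7, and 23.82, 23.17 and 26.08 FPKM in shaded WT, against 14.2, 17.72 and 17.46 FPKM in white-light WT. It fell in pif7 (-0.56 ± 0.102, adjusted p = 0.000272) and rose in WT (0.54 ± 0.102, adjusted p = 0.000474), a difference of -1.10 ± 0.145 (adjusted p = 6.98e-05). XYL1 rose in pif7 (0.93 ± 0.102, adjusted p = 1.13e-06) by less than in WT (-0.55 ± 0.145, adjusted p = 0.0311), and the same difference was called in asf1ab (-0.66 ± 0.145, adjusted p = 0.0465). CSLC4 and XXT1 rose in all 4 genotypes, by 1.12 to 1.99 and 1.48 to 2.05 log2 units.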

How the data were processed

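RNA sequencing values of 24 libraries in 8 groups were used. Total RNA was extracted with TRIzol and libraries followed standard Illumina protocols, per the labels' protocols. FastQC, cutadapt, STAR, HTSeq, DESeq2 and the TAIR10 genome are named, per the submitters' processing notes, with no versions. The authors deposited FPKM for 33020 loci to 2 decimals. No source used here states how FPKM was derived, the strand setting or the read length. All 33 members matched a symbol in RefSeq TAIR10.1, which served for names, neighbours, exon lengths and upstream sequences.

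Values were transformed to log2(FPKM + 1), and 19126 loci with a mean of at least 1 FPKM over all 24 libraries were fitted with limma 3.58.1 in R 4.3.3, with a mean for each of 8 groups, an intensity trend in the moderated variances and Benjamini-Hochberg adjustment within a contrast at 0.05. An exact 0 can be a failed estimate. Depth was read from the steps of low FPKM values, since the authors' counts were not used here, and 0 pairs of libraries were identical. The fit was tested on simulated data. Members, gene lists and comparisons were chosen with earlier results of these data known, and sequence classes were assigned by hand from general knowledge of the family. Full values are given for members called with at least 1 log2 unit in shaded WT or for a difference in response; others are given by counts and means, except XTH14, whose libraries are shown as the tested Group II member not called in WT, a choice made after its values were seen. Alternatives were pseudocounts of 0.1 and 5, no filter or a mean of at least 5 FPKM, quantile normalization, rescaling by the median of ratios, no trend, only the groups compared, a change of at least 1 log2 unit, the replicate number as a block and each library left out. Added after seeing the data was a fit without both white-light hira libraries rich in ribosomal RNA, which left 1 library in that group. Tables and figures used matplotlib 3.10.9, pandas 2.3.3 and numpy 2.4.6 under Python 3.11.15.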

Additional observations from a re-analysis of the deposited data

Results flagged for a closer look

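The shade response of 8 member and mutant combinations differed from that of WT by the test of the difference itself (limma, adjusted over 19126 loci). Relative to WT, the pif7 response was -1.12 for XTH8, -2.27 for XTH17, -1.47 for XTH19, -1.6 for XTH33 and 0.47 for XTH28 on the log2 scale. The asf1ab response was 1.89 for XTH15 and -1.84 for XTH17, and the hira response was 0.52 for XTH28. XTH17, XTH19 and XTH33 in pif7 and XTH15 in asf1ab were called in each of the 24 fits that left out 1 library, with adjusted p of 0.000124 to 0.00753 for XTH17, 0.00951 to 0.0394 for XTH19, 2.79e-05 to 0.000571 for XTH33 and 0.00238 to 0.0251 for XTH15.

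The other 4 calls each depended on single libraries. XTH8 in pif7 was not called without replicate 1 or 2 of pif7 in shade, pif7 in white light or WT in white light, nor without any replicate of shaded hira or shaded WT (-1.15 to -0.99, adjusted p = 0.0502 to 0.108). XTH28 in pif7 was not called without replicate 1 or 3 of shaded pif7, replicate 1 or 2 of white-light pif7, or replicate 1 of WT in either light (0.38 to 0.47, adjusted p = 0.0505 to 0.0653). XTH17 in asf1ab was not called without replicate 2 of shaded asf1ab, replicate 1 or 2 of white-light asf1ab, replicate 2 or 3 of shaded pif7, or any replicate of shaded hira or of WT in either light (-2.02 to -1.69, adjusted p = 0.0506 to 0.12). XTH28 in hira was not called without any replicate of shaded hira, replicate 1 or 2 of white-light hira, replicate 1 of shaded WT, or replicate 1 or 2 of white-light WT (0.43 to 0.54, adjusted p = 0.062 to 0.097).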

How the results depend on the processing

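Of 89 called member values, 63 were called under every alternative and 0 reversed direction. The count of members called for a smaller or larger pif7 response was 5, and 3 with a mean of at least 5 FPKM. For asf1ab it was 2, and 1 with a pseudocount of 0.1, with no filter and with only the groups compared. For hira it was 1, then 2 with a pseudocount of 5, and 0 with quantile normalization, only the groups compared or a change of at least 1 log2 unit. In white light the pif7 count was 1, and 0 with only the groups compared or with at least 1 log2 unit. The asf1ab count was 6, then 2 with only the groups compared and 1 with at least 1 log2 unit. The hira count was 3, then 0 with only the groups compared and 1 after rescaling or with at least 1 log2 unit. Counts without both hira libraries rich in ribosomal RNA are not given, since that fit left 1 white-light hira library. The family sum of shaded pif7 was 2127.0 FPKM after rescaling, against 2333.9. Fewer libraries or loci in some fits are part of their construction, and beyond that the cause was not tested. Leaving out 1 library at a time gave 15 to 19 called members for shade in pif7, 14 to 19 in asf1ab, 15 to 18 in hira and 18 to 19 in WT, 3 to 6, 1 to 3 and 0 to 4 for the differences in response of pif7, asf1ab and hira, and 0 to 2, 4 to 7 and 1 to 5 for the same mutants in white light.

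With the replicate number as a block, 18 members were called for shade in pif7 in place of 17, and no other count changed. Same-numbered libraries correlated at -0.114 to 0.207 over the 21 pairs of libraries in 7 pairs of groups, with 6 pairs of libraries over 0.1. In 12 of the 21 the same number correlated better than either other number. These low values do not settle whether the numbers pair the samples. Depth limits members near 1 FPKM, such as XTH19 and XTH33 in white light, where few reads underlie a value.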
